A study of Homo sapiens with 18 samples.

Results

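The 54 DNA replication and G1/S genes described here were picked by symbol, with earlier results of these data known, as genes of origin recognition, the replicative helicase, polymerases delta and epsilon, the sliding clamp, single-strand binding, nucleotide supply, G1/S cyclins, chromatin assembly and fork control. All 54 were found among the 58870 genes of the count table, and all 54 passed the filter on low counts, which kept 17743 genes. Polyadenylated RNA came from HEK293T, a human embryonic kidney line that carries the SV40 large T antigen, in 6 groups of 3 libraries. The question was what changes in the transcriptome when base editing removes exon 7 from NRF1 transcripts. NRF1 is a transcription factor of GC-rich promoters. Each group received 1 plasmid that held both an editor and a guide. SaABE joins the adenine deaminase ABE8e to a nickase form of S. aureus Cas9, SpABE joins ABE8e to a nickase form of S. pyogenes Cas9, and SpCBE joins the cytosine deaminase evoCDA1 to the S. pyogenes nickase. With each editor, 3 libraries had a guide to a splice site of NRF1 exon 7 (NRF1 guide) and 3 had a guide to an intergenic site (intergenic guide). In all 6 groups, 750000 cells were transfected and kept in puromycin for 48 hours, and RNA was extracted 72 hours after transfection. The cells were transfected pools and not clones. Whether the 3 libraries of a group stem from independent cultures is not in the labels, so every p-value here speaks of library-to-library spread, part of which may be technical.

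DNA replication starts when the origin recognition complex, with CDC6 and CDT1, loads the MCM2 to MCM7 ring onto DNA in G1. At the G1/S transition, cyclin E with CDK2, and the DBF4-dependent kinase CDC7, turn the loaded ring into an active helicase with CDC45 and the GINS complex. Polymerases delta and epsilon then copy DNA behind it, held by the PCNA clamp that the RFC complex loads. Many of these genes are transcribed in late G1 and S phase under E2F factors, which RB restrains, and the large T antigen of HEK293T binds RB. In bulk RNA, fewer cells in S phase and less RNA per cell cannot be told apart.

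Estimated counts summed to between 28101094 and 40687447 per library, and the biological coefficient of variation was 3.1%. Replicates of a group differed beyond sampling noise, by a chi-square per degree of freedom of 1.92 to 4.14, and of 5.85 between SaABE intergenic replicates 1 and 2. The NRF1 transcript itself, which carries the edited site, was at 35.7 to 43.8 CPM in NRF1-guide libraries, against 24.4 to 33.1 CPM in intergenic-guide libraries (log2 fold change 0.49 ± 0.045, SE; adjusted p = 3.61e-09). CPM here are counts scaled to a common library total by TMM, and log2 fold changes are NRF1 guide over intergenic guide. This gene total does not measure exon 7, which was not analysed here. Among 10 embryonic kidney markers, 7 were detected well enough to test, and PAX8 and CDH16, which mark nephric and tubular lineages, had 0 to 2 counts in every library. Of the 7 tested, 0 rose and 0 fell over all editors at an adjusted p under 0.05 (median log2 fold change -0.041). As CPM of the unscaled library total, without TMM, the summed level of the 10 kidney markers was 95.1 to 106 CPM in NRF1-guide libraries and 101 to 117 CPM in intergenic-guide libraries. On the same scale, the 3 neurofilament genes known from HEK293 lines (NEFL, NEFM and INA) summed to 162 to 207 CPM in NRF1-guide libraries and 208 to 252 CPM in intergenic-guide libraries, and with vimentin (VIM) the list of 4 summed to 757 to 972 CPM in NRF1-guide libraries and 837 to 1008 CPM in intergenic-guide libraries. INA (log2 fold change -0.50; adjusted p = 1.91e-13) and NEFL (-0.36; adjusted p = 6.1e-11) fell, and NEFM (-0.025) and VIM (-0.010) did not pass. Lower too were 2 of 5 tested fibroblast markers and 2 of 5 tested epithelial markers, while of 4 tested blood markers CD14 rose and TAL1 fell. Their part in the results below was not tested.

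Over all 3 editors, the large changes among the 54 members were falls of CDC7, POLD1 and UHRF1, while the other 51 members had log2 fold changes between -0.20 and 0.27. Of the 54 members, 15 rose (27.8%) and 8 fell (14.8%) at an adjusted p under 0.05, against 20.6% and 18.8% of all tested genes. The median log2 fold change of the members was 0.027, against 0.013 over all tested genes. CDC7 and POLD1 were called lower, which means an adjusted p under 0.05 and a log2 fold change under -0.5. These 2 are 3.7% of the members, against 4.37% of all tested genes. The count of members that rose or fell is close to the background. In refits that left out an editor, 26 rose without SpABE, and 13 fell without SpCBE. The share over all tested genes was not taken in those refits.

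**Figure D1:**
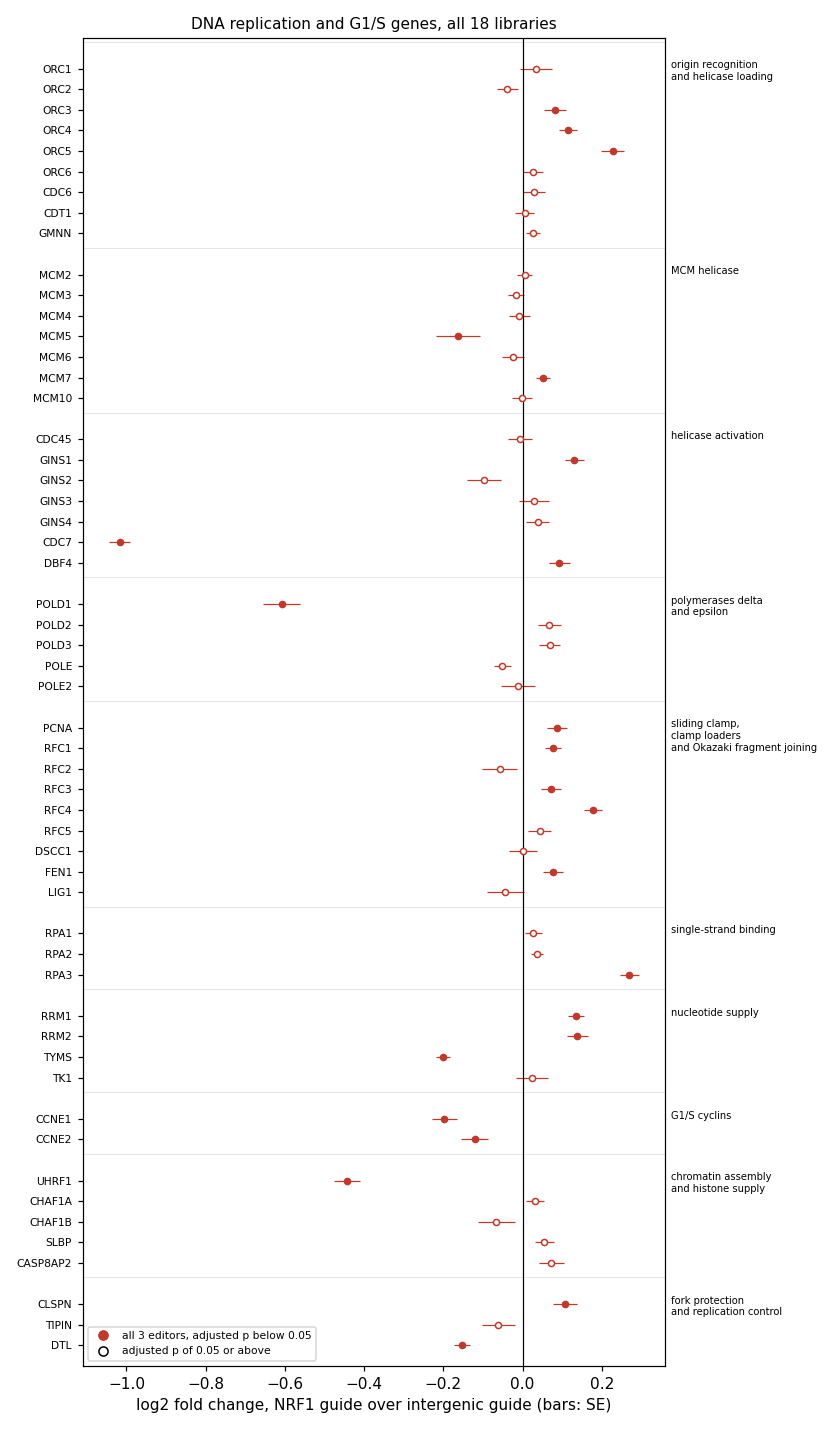
Log2 fold change of each of the 54 members, NRF1 guide over intergenic guide, in the fit of all 18 libraries, grouped by role; bars are SE and filled points have an adjusted p under 0.05. CDC7 (-1.02), POLD1 (-0.61) and UHRF1 (-0.44) stand apart to the left, and RPA3 (0.27) and ORC5 (0.23) have the highest values.

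CDC7 encodes the catalytic subunit of the kinase that phosphorylates the MCM ring at origins, and lies at chr1:91500851-91525764 (hg38). CDC7 was at 42.7, 39.4 and 43.2 CPM in SaABE NRF1-guide libraries, against 84.9, 92.7 and 88.2 CPM in SaABE intergenic-guide libraries. It was at 52.6, 48.4 and 51.1 CPM in SpABE NRF1-guide libraries, against 107, 104 and 99.2 CPM in SpABE intergenic-guide libraries. With the cytosine editor it was at 56.2, 54.3 and 53.9 CPM in SpCBE NRF1-guide libraries, against 106, 105 and 107 CPM in SpCBE intergenic-guide libraries. Every NRF1-guide library lay below every intergenic-guide library, and the fitted level was 50.6% lower over all editors (log2 fold change -1.02 ± 0.027 (SE; adjusted p = 1.62e-19)). The effect was -1.08, -1.02 and -0.95 on the log2 scale in SaABE, SpABE and SpCBE, and no difference between editors was detected (interaction adjusted p = 0.249). DBF4, the regulatory subunit that activates CDC7, did not fall with it: DBF4 rose by 0.092 ± 0.026 (SE; adjusted p = 0.00622) on the log2 scale over all editors. By editor, the DBF4 rise passed in SaABE (0.15; adjusted p = 0.00855). It did not pass in SpABE (0.034; adjusted p = 0.567) or SpCBE (0.10; adjusted p = 0.0716).

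POLD1, at chr19:50384204-50418018, encodes the catalytic subunit of polymerase delta, which copies the lagging strand. POLD1 was at 45.3, 47.8 and 46.2 CPM in SaABE NRF1-guide libraries, against 85.8, 70.4 and 75.6 CPM in SaABE intergenic-guide libraries. In the second adenine editor it was at 51.9, 53 and 47.8 CPM in SpABE NRF1-guide libraries, against 79.5, 86.2 and 87.3 CPM in SpABE intergenic-guide libraries. For the cytosine editor the values were 78, 78.2 and 78.5 CPM in SpCBE NRF1-guide libraries, against 105, 101 and 101 CPM in SpCBE intergenic-guide libraries. The groups were apart within each editor. The log2 fold change over all editors was -0.61 ± 0.046 (SE; adjusted p = 1.18e-10). The fall was smaller in SpCBE (-0.39) than in SaABE (-0.74) or SpABE (-0.73), and the difference between editors passed (interaction adjusted p = 0.00153). Of the exon bases of POLD1, 8.63% are shared with another annotated gene on the same strand, and the share of its reads that this affects is not known.

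UHRF1, at chr19:4903080-4962154, binds hemimethylated DNA and brings the maintenance methyltransferase DNMT1 to newly copied DNA. UHRF1 was at 142, 142 and 148 CPM in SaABE NRF1-guide libraries, against 187, 187 and 184 CPM in SaABE intergenic-guide libraries. With SpABE the values were 128, 122 and 126 CPM in NRF1-guide libraries, against 191, 196 and 194 CPM in intergenic-guide libraries. With SpCBE they were 146, 135 and 139.9 CPM in NRF1-guide libraries, against 182, 171 and 176 CPM in intergenic-guide libraries. The highest of the 9 NRF1-guide libraries was under the lowest of the 9 intergenic-guide libraries, with a log2 fold change of -0.44 ± 0.034 (SE; adjusted p = 1.19e-10). UHRF1 was called lower in SpABE (-0.63), and its fall in SaABE (-0.37) and SpCBE (-0.33) stayed inside the fold threshold. The difference between editors passed (interaction adjusted p = 5.66e-05).

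**Figure D2:**
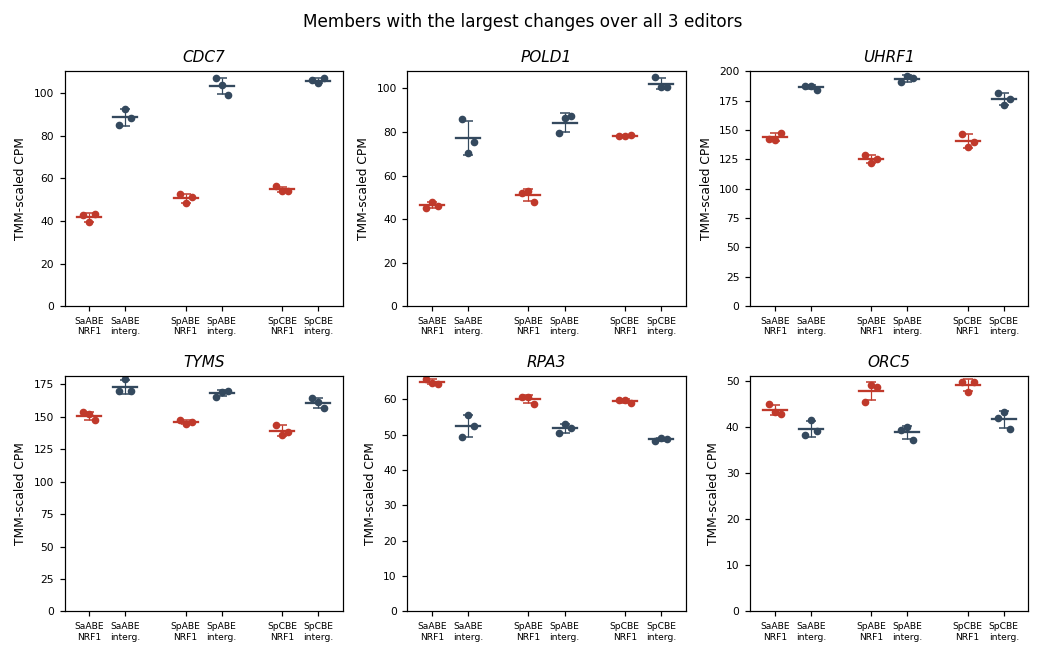
TMM-scaled CPM per library for CDC7, POLD1, UHRF1, TYMS, RPA3 and ORC5; points are libraries, lines are means and bars are SD (n = 3), with each editor's NRF1 guide (red) left of its intergenic guide (dark). CDC7 in NRF1-guide libraries sits at 39.4 to 56.2 CPM, below all intergenic-guide libraries at 84.9 to 107 CPM.

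Promoter sequence was read for the members from RefSeq (GRCh38.p14), as 250 bases before and 50 bases after each annotated start, and 46 of the 54 members were matched by symbol. MCM4, MCM5, GINS4, POLD3, DSCC1, RPA2, RPA3 and CCNE2 were not matched. The NRF1 motif searched on both strands was GCGC, then A, then C or T, then GCGC. It was present in 5 of 46 members (10.9%), against 5.96% of 11609 tested genes and 3.34% of 27305 genes with a promoter in the table. The 5 members are UHRF1, MCM2, CDT1, ORC6 and PCNA. With 1 mismatch allowed, 17 of 46 members (37%) held it, against 24.3% of tested genes, and CDC7 was among these 17. No match to either form was found in the 2 POLD1 windows. These matches are letters in a window and not measured binding.

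The E2F motif was searched as TTTCCCGC, TTTGGCGC, TTTGCCGC or TTTCGCGC on both strands, and none of its matches overlapped an exact NRF1 match in a member. It was present in 23 of 46 members (50%), against 6.43% of tested genes and 3.99% of all genes in the promoter table. In SpABE, 13 of the 23 members with the E2F motif fell, as did 11 of the 23 without it. In SpCBE, 7 of the 23 with the motif rose, as did 12 of the 23 without it.

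The promoters below are those of the 3 members called over all editors or in 1 of them and of the other 4 members with an exact NRF1 match, from 220 bases before the start through 20 bases of the transcript, and for UHRF1 only the match with 10 bases on each side. Capitals mark exact NRF1 matches, and in CDC7 the matches with 1 mismatch. All are given 5′ to 3′ on the gene's strand, which is the plus strand except for PCNA. CDC7 is at chr1:91500631-91500870, UHRF1 at chr19:4910318-4910347, POLD1 at chr19:50384103-50384342, MCM2 at chr3:127598191-127598430, CDT1 at chr16:88803569-88803808, ORC6 at chr16:46689439-46689678 and PCNA at chr20:5126603-5126842.
CDC7: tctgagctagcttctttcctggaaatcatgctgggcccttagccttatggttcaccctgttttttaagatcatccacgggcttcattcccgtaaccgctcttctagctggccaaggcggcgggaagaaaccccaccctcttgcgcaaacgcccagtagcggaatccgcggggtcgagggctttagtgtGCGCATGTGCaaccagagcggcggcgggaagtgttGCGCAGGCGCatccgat
UHRF1: gggcccggtcGCGCACGCGCgcgggggggg
POLD1: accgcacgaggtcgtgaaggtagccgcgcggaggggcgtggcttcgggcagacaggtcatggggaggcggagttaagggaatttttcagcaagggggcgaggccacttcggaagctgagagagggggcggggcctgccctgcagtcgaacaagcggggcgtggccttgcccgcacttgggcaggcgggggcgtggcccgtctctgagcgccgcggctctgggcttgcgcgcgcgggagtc
MCM2: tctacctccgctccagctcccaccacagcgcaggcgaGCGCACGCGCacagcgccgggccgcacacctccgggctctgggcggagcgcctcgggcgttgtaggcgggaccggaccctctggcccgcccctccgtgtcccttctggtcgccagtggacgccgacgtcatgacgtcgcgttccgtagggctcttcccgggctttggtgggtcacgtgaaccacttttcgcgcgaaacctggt
CDT1: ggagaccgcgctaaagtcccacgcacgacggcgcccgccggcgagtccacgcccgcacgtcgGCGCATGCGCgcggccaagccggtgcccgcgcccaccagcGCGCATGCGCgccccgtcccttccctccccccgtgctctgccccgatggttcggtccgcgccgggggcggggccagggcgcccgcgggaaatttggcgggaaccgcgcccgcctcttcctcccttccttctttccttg
ORC6: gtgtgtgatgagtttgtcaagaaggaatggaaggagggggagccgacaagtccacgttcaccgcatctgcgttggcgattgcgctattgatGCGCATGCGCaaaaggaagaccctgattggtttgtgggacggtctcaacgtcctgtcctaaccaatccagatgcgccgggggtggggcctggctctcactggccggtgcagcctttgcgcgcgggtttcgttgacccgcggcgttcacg
PCNA: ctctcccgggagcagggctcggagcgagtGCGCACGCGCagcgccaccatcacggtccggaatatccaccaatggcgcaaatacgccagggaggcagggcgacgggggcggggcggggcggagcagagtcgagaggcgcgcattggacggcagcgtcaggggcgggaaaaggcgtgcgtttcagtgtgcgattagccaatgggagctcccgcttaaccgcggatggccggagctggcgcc

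CDC7 has 2 annotated starts, and the stretch shown is that of the first, where its matches begin 32 bases before and 3 bases after the start. A further CDC7 match with 1 mismatch begins 21 bases before the second start, outside the stretch shown. The UHRF1 match begins 39 bases before the third of its annotated starts. That start lies downstream of the other annotated starts of UHRF1, whose windows hold no exact match. Which start these cells use was not tested. The CDT1 promoter holds 2 exact matches, 158 and 118 bases before the start. Of the 5 members with an exact match, UHRF1 fell, PCNA rose by 0.087 ± 0.025 (SE; adjusted p = 0.00662) on the log2 scale, and the other 3 did not pass over all editors. Their log2 fold changes were 0.005 for MCM2 (adjusted p = 0.871), 0.0051 for CDT1 (adjusted p = 0.891) and 0.027 for ORC6 (adjusted p = 0.436). The MCM2 ratio had an interval of 0.977 to 1.03 (95%). By editor, the PCNA rise passed in SaABE (0.18; adjusted p = 0.00015). It did not pass in SpABE (0.021; adjusted p = 0.684) or SpCBE (0.060; adjusted p = 0.213). The PCNA difference between editors passed (interaction adjusted p = 0.0441).

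Among the 9 origin recognition and helicase loading genes, 3 rose over all editors and the other 6 did not pass, with log2 fold changes of all 9 between -0.039 and 0.23. ORC5, a subunit of the origin recognition complex, was at 42.9 to 50 CPM (median 47.7) in the 9 NRF1-guide libraries, against 37.3 to 43.4 CPM (median 39.7) in the 9 intergenic-guide libraries. Its libraries were apart within each editor, and it rose by 0.23 ± 0.029 (SE; adjusted p = 7.44e-07) on the log2 scale. ORC4, a second subunit, was at 82.2 to 90.9 CPM (median 85.9) in the 9 NRF1-guide libraries, against 76.3 to 82.5 CPM (median 80.5) in the 9 intergenic-guide libraries, and rose by 0.12 ± 0.022 (SE; adjusted p = 0.000209). In SpABE alone the ORC4 effect did not pass (0.066, adjusted p = 0.156). ORC1, the subunit whose level cycles with S phase, did not pass over all editors (0.033 ± 0.04 (SE; adjusted p = 0.567)) and moved in different directions between editors, with values given further on.

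In the MCM helicase, 1 of 7 genes rose, 1 fell, and the other 5 did not pass over all editors. MCM5 was the member of the ring that fell (-0.16 ± 0.055 (SE; adjusted p = 0.022)), and its libraries overlapped: it was at 163 to 246 CPM (median 202) in the 9 NRF1-guide libraries, against 167 to 293 CPM (median 227) in the 9 intergenic-guide libraries. The fall over all editors rested on SpABE. Without SpABE the MCM5 log2 fold change was 0.0099 (adjusted p = 0.836). With the replicate number as a block it was -0.16 (adjusted p = 0.068), and by the DESeq2 Wald test it was -0.15 (adjusted p = 0.0651). With no editor term it was -0.17 (adjusted p = 0.362). MCM5 also did not pass when any SpABE NRF1-guide library or SpABE intergenic replicate 3 was left out, at -0.13 to -0.14 (adjusted p 0.0515 to 0.0598). Summed over MCM2 to MCM7, the ring was at 1997, 2025 and 2022 CPM in SaABE NRF1-guide libraries, against 2004, 1972 and 1983 CPM in SaABE intergenic-guide libraries. In SpABE the sum was 2180, 2180 and 2165 CPM with the NRF1 guide, against 2336, 2395 and 2396 CPM with the intergenic guide. In SpCBE it was 2233, 2266 and 2254 CPM with the NRF1 guide, against 2109, 2144 and 2116 CPM with the intergenic guide. The sum was lower with the NRF1 guide in SpABE, higher in SpCBE, and overlapped in SaABE.

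Of the 7 helicase activation genes, 2 rose, CDC7 fell, and the other 4 did not pass. GINS1, a subunit of the GINS complex, was at 80.7 to 88.2 CPM (median 85.1) in the 9 NRF1-guide libraries, against 72.9 to 84.2 CPM (median 77.4) in the 9 intergenic-guide libraries. It rose by 0.13 ± 0.024 (SE; adjusted p = 0.000136) on the log2 scale, with the groups apart within each editor, and 3.23% of its exon bases lie opposite NINL. In SpABE alone the GINS1 effect did not pass (0.088, adjusted p = 0.0881). Among the 5 genes of polymerases delta and epsilon, POLD1 fell and the other 4 did not pass, with log2 fold changes between -0.051 and 0.068.

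Of the 9 clamp, clamp loader and Okazaki fragment genes, 5 rose over all editors and the other 4 did not pass, with log2 fold changes of all 9 between -0.058 and 0.18. RFC4, a subunit of the clamp loader, was at 50.9 to 57.2 CPM (median 54.3) in the 9 NRF1-guide libraries, against 43.6 to 51.2 CPM (median 46.9) in the 9 intergenic-guide libraries. It rose by 0.18 ± 0.023 (SE; adjusted p = 8.79e-07), with the groups apart within each editor. Of the 3 single-strand binding genes, RPA3 rose and the other 2 did not pass. RPA3, the smallest subunit of RPA, was at 58.7 to 65.7 CPM (median 60.6) in the 9 NRF1-guide libraries, against 48.3 to 55.4 CPM (median 50.4) in the 9 intergenic-guide libraries. All 9 NRF1-guide libraries were above all 9 intergenic-guide libraries, and the rise was 0.27 ± 0.023 (SE; adjusted p = 1.23e-09), or 20.6% on the linear scale.

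All 4 nucleotide supply genes encode enzymes of deoxynucleotide synthesis or salvage, and they did not move together. TYMS, thymidylate synthase, was at 136 to 153 CPM (median 146) in the 9 NRF1-guide libraries, against 157 to 179 CPM (median 169) in the 9 intergenic-guide libraries. Libraries of the 2 guides did not overlap, with a log2 fold change of -0.20 ± 0.018 (SE; adjusted p = 1.72e-09) and nearly the same effect in each editor (-0.20, -0.20 and -0.21; interaction adjusted p = 0.988). Antisense genes, ENOSF1 and TYMSOS, cover 47.9% of its exon bases, and whether the counting used strand is not given in the sources used here. Both ribonucleotide reductase subunits rose. RRM1, the large subunit, was at 290.4 to 338 CPM (median 328) in the 9 NRF1-guide libraries, against 268 to 305 CPM (median 290) in the 9 intergenic-guide libraries and rose by 0.14 ± 0.02 (SE; adjusted p = 5.13e-06). RRM2, the S-phase small subunit, was at 233 to 273 CPM (median 261) in the 9 NRF1-guide libraries, against 198 to 265 CPM (median 232) in the 9 intergenic-guide libraries and rose by 0.14 ± 0.026 (SE; adjusted p = 0.00018), with effects of 0.21 in SaABE, 0.01 in SpABE and 0.20 in SpCBE. In a fit with no editor term, RRM2 did not pass (0.13; adjusted p = 0.111).

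Both E-type cyclins, which activate CDK2 at the G1/S transition, fell in the fit of all editors, but not with the same editors. CCNE1 was at 25.6 to 34.7 CPM (median 27.5) in the 9 NRF1-guide libraries, against 27.6 to 39.6 CPM (median 32.5) in the 9 intergenic-guide libraries and fell by 0.20 ± 0.031 (SE; adjusted p = 1.85e-05). CCNE1 fell in SaABE (-0.20) and SpABE (-0.31), while its value in SpCBE was -0.082 (adjusted p = 0.186). CCNE2 was at 29.8 to 35.7 CPM (median 32.7) in the 9 NRF1-guide libraries, against 30.6 to 40.7 CPM (median 35) in the 9 intergenic-guide libraries, with a log2 fold change of -0.12 ± 0.034 (SE; adjusted p = 0.00567). With no editor term neither passed, at adjusted p = 0.109 for CCNE1 and 0.0882 for CCNE2. By editor, CCNE2 fell in SpCBE (-0.19; adjusted p = 0.00847). Its effect did not pass in SaABE (-0.053; adjusted p = 0.517) or SpABE (-0.11; adjusted p = 0.105). Without SpCBE the CCNE2 value was -0.085 (adjusted p = 0.113), and 37.1% of its exon bases lie opposite other genes, INTS8 among them.

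Of the 5 chromatin assembly and histone supply genes, UHRF1 fell and the other 4 did not pass, at -0.066 to 0.073. Among the 3 fork protection and replication control genes, DTL fell, CLSPN rose and TIPIN did not pass. DTL, the substrate receptor through which CDT1 is degraded in S phase, was at 136 to 173 CPM (median 166) in the 9 NRF1-guide libraries, against 145 to 202 CPM (median 177) in the 9 intergenic-guide libraries and changed by -0.15 ± 0.021 (SE; adjusted p = 2.49e-06). CLSPN, the checkpoint mediator claspin, was at 78.2 to 102 CPM (median 97.6) in the 9 NRF1-guide libraries, against 79 to 102 CPM (median 83.6) in the 9 intergenic-guide libraries and rose by 0.11 ± 0.031 (SE; adjusted p = 0.00807). The rise of CLSPN passed in SpABE (0.23 ± 0.041 (SE; adjusted p = 6.53e-05)) and not in SaABE (0.046) or SpCBE (0.038), and without SpABE its value was 0.041 (adjusted p = 0.353). With no editor term neither DTL (adjusted p = 0.136) nor CLSPN (adjusted p = 0.225) passed.

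Levels of the members differed widely when taken per length. As mean CPM per kb of annotated exon (GENCODE 44), PCNA was highest at 250, followed by MCM7 at 122 and RPA2 at 105, and LIG1 was lowest at 4.27. The members that fell most were in the middle of this order, at 31.3 for UHRF1, 20.6 for CDC7 and 14.8 for POLD1. The length counts every annotated exon, rare ones included.

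Of the 54 members, 25 had the same sign of effect with all 3 editors, and 12 rose with one editor and fell with another, each at an adjusted p under 0.05. Neither count was taken over all tested genes, so no background stands beside them. In SpABE 26 of the 54 members fell (48.1%), against 17.3% of all tested genes, and 6 rose (11.1%), against 15.4%. In SpCBE 24 members rose (44.4%), against 11% of all tested genes, and 6 fell (11.1%), against 12%. In SaABE 19 members rose (35.2%), against 16.9%, and 7 fell (13%), against 15.5%. The median log2 fold change of the members was 0.054 in SaABE, -0.081 in SpABE and 0.084 in SpCBE, against 0.015, -0.0015 and 0.012 over all tested genes. The SaABE count of rises fell to 12 without SaABE NRF1 replicate 1 and to 10 when only the 6 SaABE libraries were fitted. The share over all tested genes was not taken in those fits.

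Called members were few with every editor. SaABE had 2 called lower, CDC7 and POLD1 (3.7%, against 4.81% of all tested genes). SpABE had 3, CDC7, POLD1 and UHRF1 (5.56%, against 4.7%). SpCBE had 1, CDC7 (1.85%, against 3.61%). The change of MCM5 in SpABE lay just inside the fold threshold (-0.499) and was not called. It passed the fold threshold without SpABE NRF1 replicate 2 or 3 or SpABE intergenic replicate 1 (-0.50 to -0.54).

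**Figure D3:**
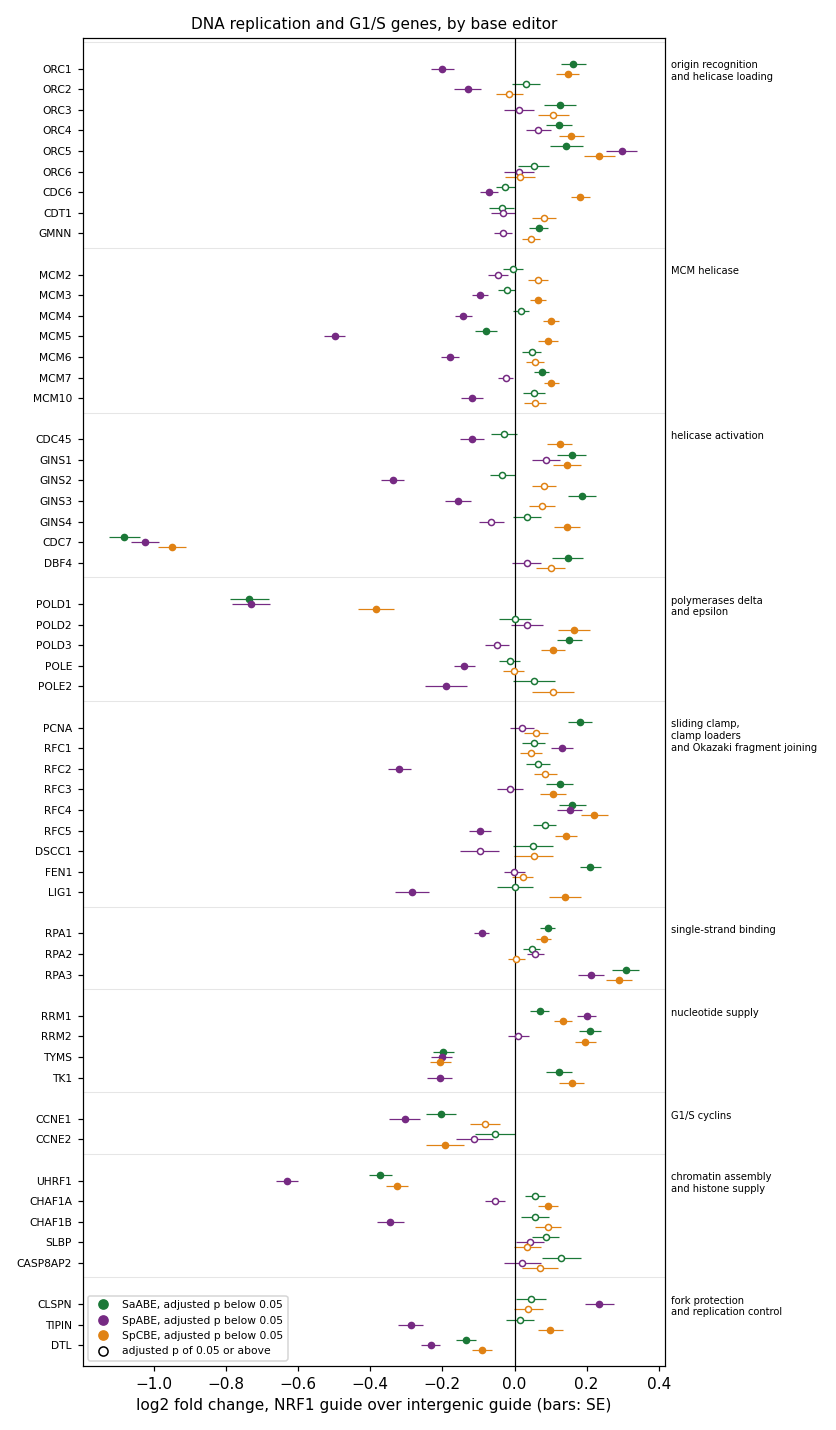
Log2 fold change of each member by editor, NRF1 guide over intergenic guide, grouped by role; bars are SE and filled points have an adjusted p under 0.05 in that editor. CDC7, UHRF1 and TYMS are to the left with all 3 editors, whereas most SpABE values (purple) lie left of the SaABE (green) and SpCBE (orange) values of the same gene.

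A test of the difference itself, the interaction of guide and editor, passed for 32 of 54 members (59.3%), against 15% of all tested genes. The SpABE effect was the lowest of the 3 in 29 of these 32, a count that was not taken over all tested genes. Between pairs of editors, the SpABE effect was lower than the SpCBE effect for 28 members and higher for 1 (all tested genes: 4.42% lower and 4.54% higher). The SaABE effect was higher than the SpABE effect for 21 members and lower for 2 (all tested genes: 6.37% and 5.33%). The SaABE effect was higher than the SpCBE effect for 1 member and lower for 3 (all tested genes: 2.02% and 2.07%). These pairs share libraries and are not independent of each other.

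MCM5, a subunit of the MCM ring, had the smallest interaction p (adjusted p = 1.46e-09). MCM5 was at 198, 202 and 202 CPM in SpABE NRF1-guide libraries, against 268, 293 and 289 CPM in SpABE intergenic-guide libraries. The same gene was at 164, 163 and 164 CPM in SaABE NRF1-guide libraries, against 177, 167 and 174 CPM in SaABE intergenic-guide libraries. In SpCBE it was at 242, 246 and 239 CPM in SpCBE NRF1-guide libraries, against 227, 229 and 226 CPM in SpCBE intergenic-guide libraries. The effect was -0.50 in SpABE, -0.078 in SaABE (adjusted p = 0.0495, over 0.05 in 5 of 7 other settings and without any 1 of 8 libraries) and 0.093 in SpCBE (adjusted p = 0.0191, and 0.0628 without SpCBE NRF1 replicate 2). Its highest libraries were the SpABE intergenic ones.

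RFC2, a clamp loader subunit, was at 105, 106 and 105 CPM in SpABE NRF1-guide libraries, against 127, 139 and 129 CPM in SpABE intergenic-guide libraries. Its effect was -0.32 ± 0.032 (SE; adjusted p = 2.39e-08) in SpABE, 0.066 in SaABE (adjusted p = 0.148) and 0.086 in SpCBE (adjusted p = 0.0545). GINS2, a GINS subunit, was at 77.4, 79 and 75.7 CPM in SpABE NRF1-guide libraries, against 95.3, 100 and 97.9 CPM in SpABE intergenic-guide libraries, with an effect of -0.34 ± 0.033 (SE; adjusted p = 1.25e-08). Both genes fell in SpABE and did not pass in SaABE or SpCBE, where the GINS2 effects were -0.034 and 0.083.

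CHAF1B, a subunit of the chromatin assembly factor CAF-1, was at 61.5, 68.1 and 65.2 CPM in SpABE NRF1-guide libraries, against 80.1, 85.7 and 81.4 CPM in SpABE intergenic-guide libraries. TIPIN, which steadies stalled forks together with TIMELESS, was at 61.3, 61.3 and 61.3 CPM in SpABE NRF1-guide libraries, against 75.7, 75.5 and 73.3 CPM in SpABE intergenic-guide libraries. Their SpABE effects were -0.34 ± 0.037 (SE; adjusted p = 6.1e-08) and -0.29 ± 0.035 (SE; adjusted p = 5.28e-07). The TIPIN effect in SpCBE was of the other sign (0.10; adjusted p = 0.0432), and a pseudogene on the same strand, RPL9P25, covers 21.1% of its exon bases.

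ORC1 changed in opposite directions between editors. ORC1 was at 73.6, 69.7 and 71.4 CPM in SpABE NRF1-guide libraries, against 79.8, 84 and 82.9 CPM in SpABE intergenic-guide libraries, with a log2 fold change of -0.20 ± 0.032 (SE; adjusted p = 2.71e-05). It was at 60.5, 60.4 and 61.5 CPM in SaABE NRF1-guide libraries, against 54.4, 53.7 and 54.8 CPM in SaABE intergenic-guide libraries, a rise of 0.16 ± 0.035 (SE; adjusted p = 0.000821). It was at 84.5, 90.2 and 85.5 CPM in SpCBE NRF1-guide libraries, against 78.9, 79.5 and 76.4 CPM in SpCBE intergenic-guide libraries, a rise of 0.15 ± 0.032 (SE; adjusted p = 0.00123). The groups were apart within each of the editors.

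**Figure D4:**
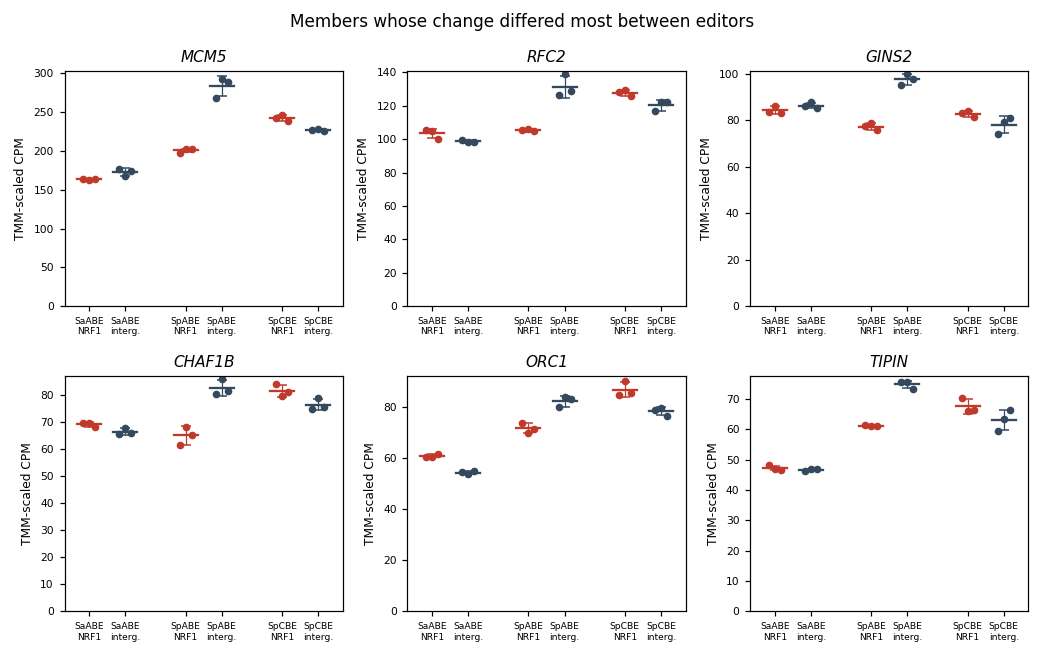
TMM-scaled CPM per library for the 6 members with the smallest interaction p; points are libraries, lines are means and bars are SD (n = 3), with each editor's NRF1 guide (red) left of its intergenic guide (dark). For MCM5 the SpABE NRF1-guide libraries sit at 198 to 202 CPM, below the SpABE intergenic-guide libraries at 268 to 293 CPM, and the other editors' pairs lie close together.

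The intergenic-guide libraries of the 3 editors also differed from each other in these genes. In SaABE against SpABE, 31 members were lower and 3 higher, against 19.1% and 19.3% of all tested genes. In SaABE against SpCBE, 25 were lower and 12 higher, against 20.6% and 20.1%. In SpABE against SpCBE, 29 were higher and 6 lower, against 17.7% and 17.8%. In both contrasts with SpABE, most members were higher in the SpABE intergenic-guide libraries. Other cell cycle lists differed between these libraries too. Of 43 G2/M genes, 31 were lower and 0 higher in SaABE against SpABE, 32 were lower and 1 higher in SaABE against SpCBE, and 10 were higher and 8 lower in SpABE against SpCBE. Of 52 other replication genes, 29 were lower and 6 higher in SaABE against SpABE, 25 lower and 7 higher in SaABE against SpCBE, and 20 higher and 10 lower in SpABE against SpCBE. Of 36 G1/S control genes, 9 were lower and 15 higher in SaABE against SpABE, 7 lower and 16 higher in SaABE against SpCBE, and 18 higher and 10 lower in SpABE against SpCBE. Each editor's own effect uses the same intergenic-guide libraries as these contrasts, so the 2 kinds of value are not independent.

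Between SaABE and SpABE intergenic-guide libraries, the differences of largest size were in MCM5 (-0.72 ± 0.029 (SE; adjusted p = 3.51e-15)), TIPIN (-0.68 ± 0.037 (SE; adjusted p = 7.53e-13)) and ORC1 (-0.60 ± 0.034 (SE; adjusted p = 1.63e-12)). SaABE against SpCBE had them in ORC1 (-0.53 ± 0.034 (SE; adjusted p = 1.04e-11)), CCNE1 (0.45 ± 0.042 (SE; adjusted p = 6.89e-09)) and LIG1, the ligase of Okazaki fragments (-0.44 ± 0.048 (SE; adjusted p = 8.21e-08)). For SpABE against SpCBE they were in RRM2 (0.36 ± 0.03 (SE; adjusted p = 2.63e-09)), the loading factor CDC6 (0.35 ± 0.026 (SE; adjusted p = 3.13e-10)) and GINS2 (0.32 ± 0.033 (SE; adjusted p = 4.74e-08)). CCNE1 was among the 12 members that were higher in SaABE than in SpCBE. The order of groups differed between members. CDC6 was at 150.2, 155 and 156 CPM in SaABE NRF1-guide libraries, against 153, 157 and 159 CPM in SaABE intergenic-guide libraries. It was at 221, 224 and 218 CPM in SpABE NRF1-guide libraries, against 230, 235 and 231 CPM in SpABE intergenic-guide libraries. In SpCBE it was at 201, 211 and 209 CPM with the NRF1 guide, against 179, 184 and 185 CPM with the intergenic guide.

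**Figure D5:**
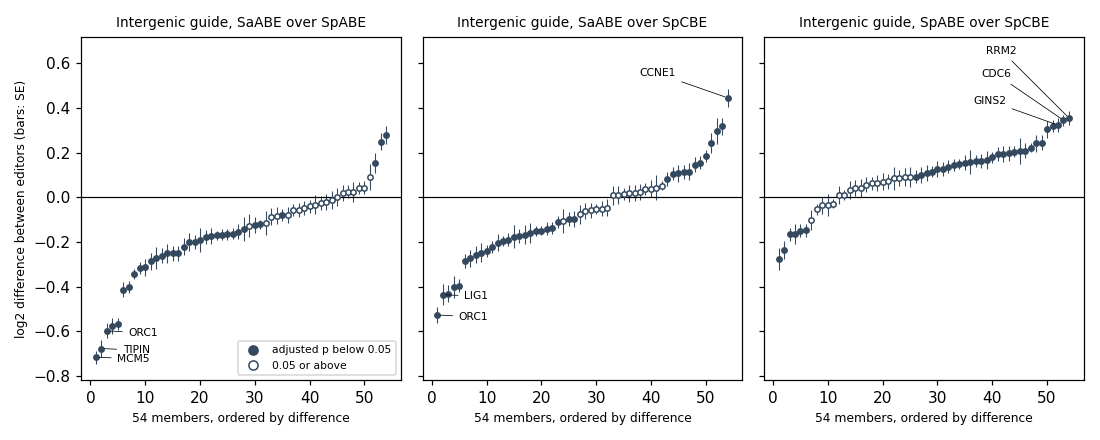
Log2 difference between the intergenic-guide libraries of each pair of editors for the 54 members, ordered within each panel; bars are SE and filled points have an adjusted p under 0.05. In SaABE over SpABE most points lie below 0, down to -0.72 for MCM5, and in SpABE over SpCBE most lie above 0, up to 0.36 for RRM2.

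Other measures moved with the editors and with the guide too. Shares here are of the unscaled library total, without TMM. In SaABE the TMM factors were 0.9482 to 0.9586 with the NRF1 guide, against 0.9745 to 0.9877 with the intergenic guide. With TMM, 19 members rose and 7 fell in SaABE, as given above. The 54 members took 0.707 to 0.712% of all counts in SaABE NRF1-guide libraries, against 0.713 to 0.717% in SaABE intergenic-guide libraries. In SpABE they took 0.762 to 0.767% with the NRF1 guide, against 0.828 to 0.838% with the intergenic guide. In SpCBE they took 0.822 to 0.829% with the NRF1 guide, against 0.795 to 0.804% with the intergenic guide. The 10 most abundant genes took 6.39 to 6.61% of counts in SaABE NRF1-guide libraries, against 5.86 to 6.05% in SaABE intergenic-guide libraries. In SpABE they took 5.05 to 5.17% with the NRF1 guide, against 4.59 to 4.67% with the intergenic guide. In SpCBE the share was 3.97 to 4.1% with the NRF1 guide, against 3.86 to 3.9% with the intergenic guide. This share was higher with the NRF1 guide in each editor. The editor, its plasmid and the handling of its group cannot be told apart in this design, and the part of these shares in the results was not tested.

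Of 52 other replication genes tested, 18 rose and 8 fell over all editors, 9 rose and 20 fell in SpABE, and 19 rose and 8 fell in SpCBE. Their largest falls exceeded those of the members. POLA2, the accessory subunit of polymerase alpha, had a log2 fold change of -1.61 (adjusted p = 1.54e-15). DNA2, a nuclease of Okazaki fragment processing, had one of -1.50 (adjusted p = 1.58e-19), and DNMT1, the partner of UHRF1, fell by 0.26 (adjusted p = 5.83e-10). Among 36 G1/S control genes, 14 rose and 7 fell over all editors, with E2F6, a repressor of the E2F family, at -0.47 and TFDP1, the dimer partner of E2F factors, at -0.22, while MYC rose by 0.23. Among 43 G2/M genes, 12 rose and 9 fell over all editors, with the spindle checkpoint genes MAD2L1 at -0.40 and BUB3 at -0.14 and the APC/C activator CDC20 at 0.13. In SpABE 4 of the 43 G2/M genes rose and 9 fell, and in SpCBE 5 rose and 5 fell.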

How the data were processed

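A stranded mRNA kit was used for library preparation. Per the labels and methods, the authors removed adapters with Cutadapt 1.18 and aligned reads to hg38 with STAR 2.7.0f in two-pass mode; DESeq2 1.46.0 is also in the submitters' processing notes. For the counting program and its strand setting, which were not given in the sources used here, overlapping and antisense genes stay uncertain. Values in the deposited file are estimated counts for each gene, which the authors did not normalize; 19.63% of nonzero values were not whole, and they were rounded. Another 18 sample columns were not used.

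Genes were kept by filterByExpr and tested with edgeR 4.0.16 (quasi-likelihood, TMM, R 4.3.3) with Benjamini-Hochberg adjustment over 17743 genes. One fit had editor and guide as terms (18 libraries), and another had 6 group means for each editor's effect, the interaction and the intergenic contrasts. SE is the log2 fold change divided by the root of F. DESeq2 1.42.0 served as an alternative. Steps were tested on simulated data. Between NRF1-guide and intergenic-guide libraries of the same number, deviations from the group mean correlated at 0.171, 0.138 and 0.137 in SpABE (8218 genes). The values were -0.411, -0.376 and -0.0315 in SaABE and 0.0324, 0.0428 and 0.115 in SpCBE. Between unlike numbers they were -0.171 to 0.0426 in SpABE, -0.0827 to 0.396 in SaABE and -0.149 to 0.0857 in SpCBE. The labels give no pairing by number, and these values do not settle one. Overlaps and lengths are from GENCODE 44.

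Members and lists were chosen with earlier results of these data known. Named members were those called, those with the 8 largest rises or the 8 largest falls in the fit of all editors, the 6 smallest interaction p-values, and the 3 largest differences per intergenic contrast; DBF4 and members with an NRF1 match were added afterwards. Of other lists, up to 3 genes per list were named, by smallest p.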

Additional observations from a re-analysis of the deposited data

Results flagged for a closer look

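For 32 members the effect of the NRF1 guide differed between the 3 editors by the interaction test (adjusted p from 1.46e-09 to 0.0469), and for each of them the pair of editors with the widest gap in log2 fold change is given here. In 22 members the widest gap put SpABE below SpCBE, by SpABE minus SpCBE. It was -0.59 for MCM5, -0.44 for CHAF1B, -0.43 for LIG1, -0.42 for GINS2, -0.41 for RFC2, -0.39 for TIPIN, -0.37 for TK1 and -0.30 for POLE2. For the next members it was -0.30 for UHRF1, -0.25 for CDC6, -0.24 for MCM4, -0.24 for MCM6, -0.24 for CDC45, -0.24 for RFC5, -0.22 for CCNE1 and -0.21 for GINS4. The smallest of these gaps were -0.17 for MCM10, -0.16 for MCM3, -0.15 for CHAF1A, -0.14 for POLE, -0.14 for DTL and -0.13 for MCM7. CLSPN had the opposite sign in the same pair, at 0.20. In 7 members the widest gap was between SaABE and SpABE with SaABE above, by SaABE minus SpABE, at 0.36 for ORC1, 0.34 for GINS3, 0.21 for FEN1, 0.20 for POLD3, 0.20 for RRM2, 0.18 for RPA1 and 0.16 for PCNA. RRM1 had the opposite sign in that pair, at -0.13. POLD1 had its widest gap in SaABE minus SpCBE, at -0.35. Of the 32 members, 23 fell in SpABE, 17 rose in SpCBE and 10 rose in SaABE. These counts and those of the widest gaps were not taken over all tested genes. The SpABE and SpCBE effects each rest on 3 libraries per guide. Groups of 3 libraries were not tested for single outlying values. Leaving out each library in turn gave 24 to 33 such members.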

How the results depend on the processing

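Of 892 single-gene values under other settings, 863 kept their direction and their side of the threshold, 28 lost the threshold and 1 reversed. The reversed one was MCM5 over all editors without SpABE, at 0.00986. Of 453 counts under other settings, 447 stayed within 1.5 times the reported count. Shares over all tested genes were not taken under these other settings. Over all editors, 26 members rose without SpABE, and 13 fell without SpCBE. With no editor term, 6 rose and 4 fell, and RRM2, CLSPN, CCNE1, CCNE2, DTL and MCM5 no longer passed. In SaABE, 10 rose when only the 6 libraries of that editor were fitted, and 12 without SaABE NRF1 replicate 1. Leaving out 1 library at a time gave 13 to 18 rises and 7 to 9 falls over all editors, 12 to 20 and 6 to 7 in SaABE, 6 to 8 and 22 to 26 in SpABE, 20 to 26 and 4 to 6 in SpCBE, and 24 to 33 members with a difference between editors. Over the intergenic contrasts it gave 2 to 3 higher and 29 to 33 lower in SaABE against SpABE, 10 to 13 and 22 to 25 in SaABE against SpCBE, and 26 to 31 and 5 to 7 in SpABE against SpCBE.

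With 1 mismatch allowed, 17 members in place of 5 held the NRF1 motif. With the replicate block, which pairs libraries by number, 11 members rose and 7 fell over all editors, against 15 and 8 without it. With the block MCM5 no longer passed over all editors (-0.162) or in SaABE (-0.0782), and no other named value lost the threshold. The interaction count with the block, chosen after seeing the data, was 26, against 32 without it. Scaling by DESeq2 size factors moved the median of all genes from 0.013 to 0.0193 over all editors. Depth limits changes of members with few reads, such as POLE2 at 15.9 CPM, more than those of MCM7 at 604 CPM.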
